A study of Paracentrotus lividus with 54 samples.

Results

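Adult gut and adult bodywall were compared directly in the sea urchin Paracentrotus lividus, through 1 RNA-seq library of each tissue. These are 2 of the 54 samples of a study with 22 RNA-seq, 28 ATAC-seq and 4 CUT&Tag samples. Of the RNA-seq samples 17 run from egg to larva and 5 are adult tissues. Levels were compared for 12606 of the 33922 gene models, those at 5 or more scaled CPM in gut or in bodywall. The remaining 21316 gene models lay below that level in both tissues. CPM is the read count of a gene per 1000000 counts of its library, and scaled CPM were further corrected by 1 factor per library (TMM) that evens out differences in composition.

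Gut and bodywall were set beside the adult tubefeet, Aristotle's lantern and ovaries, and beside 17 libraries that ran from the egg to the pluteus larva at 48 hours, each stage or tissue again being 1 library. The labels give genotype WT and, as treatment, normal embryonic development for all of these libraries, adult ones included, and name the cell type as the whole organism. Animal age, the number of animals behind a library and whether the adult tissues came from the same animal are not given in the sources used here. Both tissues are mixtures of cell types, so fewer cells of a type and less RNA per cell cannot be told apart in these levels.

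The gut of a sea urchin is a long coiled tube lined by an epithelium that secretes digestive enzymes and takes up and stores nutrients. The bodywall is a layered sheet made of an outer epidermis with nerve fibres, a dermis of connective tissue holding the calcite plates of the test, and an inner lining of coelomic epithelium. The tubefeet are hydraulic appendages with muscle and sensory cells, and Aristotle's lantern is the chewing apparatus of teeth, muscles and ligaments around the pharynx. The files do not pair gene identifiers with gene names, so digestive, skeletal or muscle genes could not be looked up, and the tissue labels were not checked against marker genes.

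The deposited counts summed to 28977302 in gut and 14657193 in bodywall. In gut, and in the other 20 libraries, every count was even, whereas 13147 of the 25091 nonzero counts in bodywall were odd. The bodywall library stands apart in this, and whether its counts have another unit was not tested. A difference in counting between gut and bodywall cannot be told apart from a difference between the tissues. Counts of gut and of the other 20 libraries were divided by 2 before any counting interval was made, which left 14488651 in gut. At these depths 5 scaled CPM stood for about 37 halved counts in gut and 75 counts in bodywall. Among the developmental libraries prism stood apart, where the 100 most read genes took 49.4% of the counts, while at the other stages they took 24.6% to 38.2%. Intervals printed here cover counting error only, because no tissue had a replicate. No test between gut and bodywall was possible for this reason, and differences are given as ratios.

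Gut and bodywall held most genes at like levels. Of the 12606 genes 8945, or 71.0%, lay within 2-fold of each other in both tissues, and the quartiles of the log2 ratio of gut over bodywall were -0.70 and 0.53. The median log2 ratio was -0.11, and the central 90% of genes ran between -1.89 and 1.72. Spearman's correlation across these genes was 0.803, a description over genes, which are not independent replicates. For 9349 genes, or 74.2%, the 95% counting interval of the ratio left out 1, so most ratios differed from 1 by more than counting error.

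Genes at least 4-fold apart were a small share in each direction. At this ratio 438 genes were higher in gut, 3.47% of those compared, and 563 were higher in bodywall, 4.47% of those compared. With the stricter demand that the whole 95% counting interval lie beyond 4-fold, 336 genes (2.67%) were higher in gut and 393 (3.12%) in bodywall. Large ratios were fewer on the gut side. Ratios of 8 or more were reached by 123 genes higher in gut and 280 higher in bodywall, ratios of 16 or more by 26 and 128, and ratios of 64 or more by 4 and 13. In gut, 155 of the 563 bodywall-side genes had at most 3 halved counts. In bodywall, 4 of the 438 gut-side genes had at most 3 counts. Large ratios on the bodywall side thus rest in part on few gut counts. The 4-fold line does not mark a gap in the data, since the gut-side genes nearest to it had log2 ratios of 2.0007 inside and 1.9979 outside, and the bodywall-side genes -2.0049 inside and -1.9996 outside.

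The balance between the directions depended on the scaling. The TMM factor was 0.506 for gut and 1.03 for bodywall. Scaled by library size alone, the median log2 ratio of the genes compared was -1.14, and 114 of 12116 genes (0.941%) were higher in gut against 1799 (14.8%) higher in bodywall. Gut then made up 5.96% of the calls, against 43.8% with TMM scaling. Counted relative to that median shift, library-size scaling gave 455 genes higher in gut and 416 higher in bodywall, and TMM-scaled ratios centred in the same way gave 504 and 509. All of the 114 gut genes and all 563 bodywall genes were found under both scalings, which a shift of the ratios in 1 direction largely brings about. With library-size ratios centred, 387 gut genes and 411 bodywall genes were shared with the 438 and 563 of TMM scaling. Neither tissue can thus be said to hold more raised genes than the other.

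**Figure D1:**
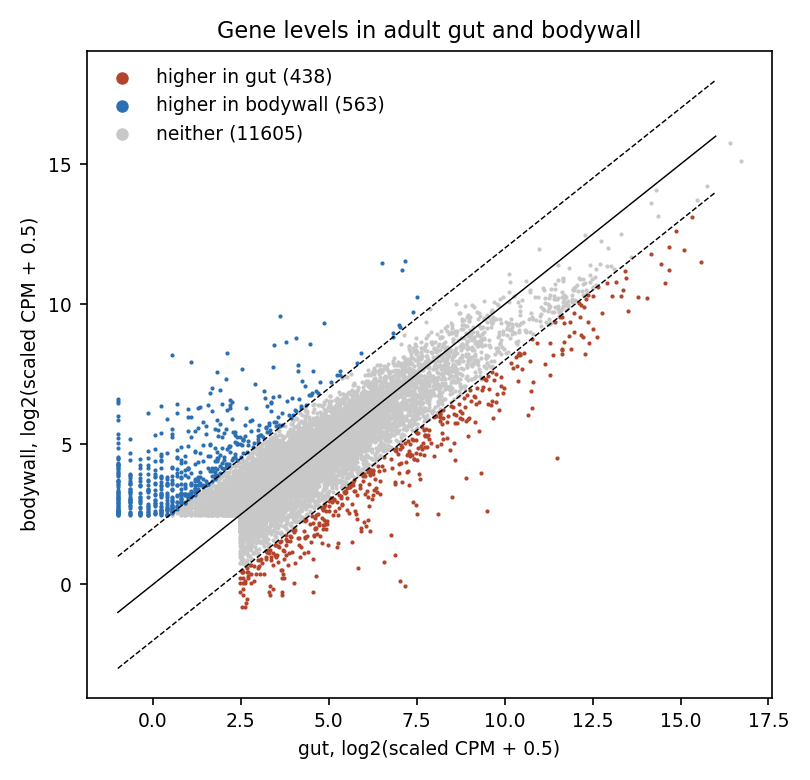
Levels of the 12606 compared genes as log2(scaled CPM + 0.5), with gut on the x axis and bodywall on the y axis, 1 point per gene; the solid line marks equal levels and the dashed lines a 4-fold ratio. The 438 genes higher in gut reach far into the high levels, while many of the 563 genes higher in bodywall form columns at the left, where gut had few or 0 counts.

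The directions also differed in the level at which the genes ran. The same gut and bodywall values chose the genes and set these levels, so this only describes under each scaling. The 438 genes higher in gut had a median of 85.0 scaled CPM in gut and 12.4 in bodywall. The 563 genes higher in bodywall had a median of 1.23 in gut and 13.8 in bodywall, against 15.8 in gut and 17.3 in bodywall over all genes compared. Genes were also split by their level in whichever tissue was higher. Among the 1785 genes at 100 CPM or more, 212 (11.9%) were higher in gut and 47 (2.63%) in bodywall. Among the 6081 genes between 5 and 20 CPM, 103 (1.69%) were higher in gut and 348 (5.72%) in bodywall. The excess of gut genes at high levels was also there with TMM factors from the pair alone, at 16.5% higher in gut and 2.36% higher in bodywall, and with centred library-size scaling, at 12.8% and 3.19%. Among the weakest genes these scalings gave 1.73% higher in gut and 4.03% higher in bodywall, and 2.10% and 3.64%.

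How far each group was still read in its lower tissue is given as a description, since the same values chose the genes. Of the 438 genes higher in gut, 289, or 66.0%, still stood at 5 CPM or more in bodywall, and none had 0 counts there. Of the 563 genes higher in bodywall, 97, or 17.2%, stood at 5 CPM or more in gut, while 71, or 12.6%, had 0 counts and 155 had at most 3 halved counts in gut. A gene of 5 to 20 CPM that is 4-fold lower in the other tissue lies at or below 5 CPM there by construction, and such genes were 103 of the gut group and 348 of the bodywall group. Over all genes compared 87.1% reached 5 CPM in gut and 93.8% in bodywall.

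A few genes carried much of the gut library. Its 100 highest genes held 56.2% of the gut counts, while the 100 highest genes of bodywall held 36.8% of the bodywall counts. Both lists shared 68 genes. Of the 100 highest gut genes 42 were at least 4-fold higher in gut, and together these 100 genes held 33.8% of the bodywall counts. The 100 highest bodywall genes included 21 that were higher in gut and 4 that were higher in bodywall. The single highest gene of gut took 5.48% of the counts there and 3.61% of those in bodywall, and it was not among the genes called different.

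Taken by counts, the 438 genes higher in gut made up 30.9% of the gut library and 8.82% of the bodywall library. They also made up 11.1% of the lantern, 3.89% of the tubefeet and 3.65% of the ovaries library. The 563 genes higher in bodywall made up 0.152% of the gut library and 3.30% of the bodywall library. The ovaries library held far more of them, at 14.995% of its counts, against 2.10% in lantern and 1.38% in tubefeet. Genes that separated bodywall from gut were thus a larger part of the ovaries library than of bodywall itself.

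**Figure D2:**
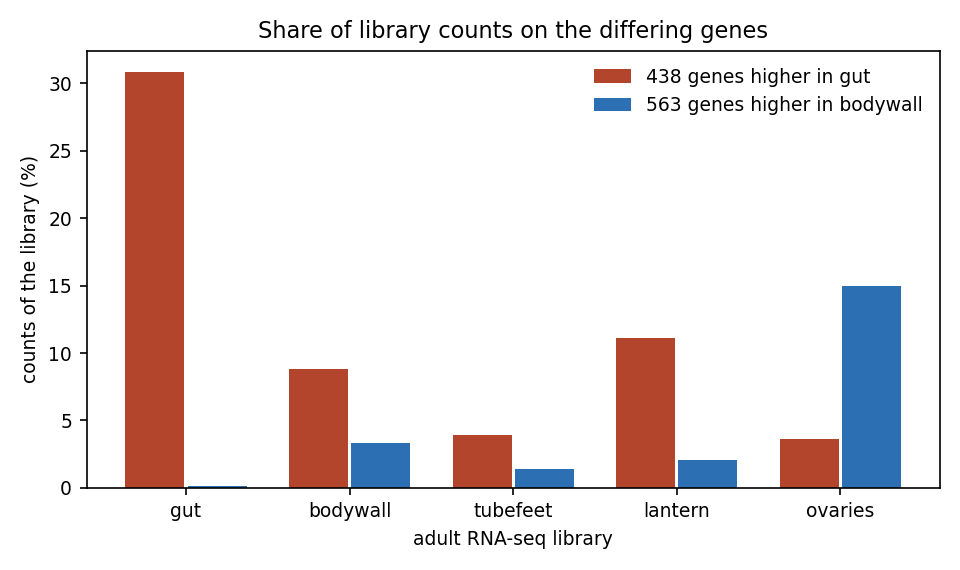
Share of each adult library's counts, in percent, that fell on the 438 genes higher in gut and on the 563 genes higher in bodywall, with 1 library per tissue and bars starting at 0. The gut genes take 30.9% of gut and 11.1% of lantern, and the bodywall genes take 3.30% of bodywall and 14.995% of ovaries.

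The genes of largest ratio, with at least 20 scaled CPM in the higher tissue, are given by identifier. PL29767 lies on the plus strand of Scaffold_2974 between 33288865 and 33293903, with 6 exon records. It had 143 scaled CPM in gut (95% exact Poisson interval 134 to 151, from 1046 halved counts) and 0.465 in bodywall (0.187 to 0.958, from 7 counts), a ratio of 307 (148 to 765). It was close to absent elsewhere, with 0 counts in tubefeet and lantern and 0.333 CPM in ovaries. In development it had 0 counts in 12 of the 17 libraries and at most 0.510 CPM, in blastula. The log2 ratio of PL29767 was 7.21 with a prior of 0.5 CPM added to both tissues.

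PL26923, on the plus strand of Scaffold_3431 between 33151691 and 33169367 with 10 exon records, ran at a far higher level. It had 2865 scaled CPM in gut (2826 to 2904) and 22.1 in bodywall (19.8 to 24.6), a ratio of 130 (116 to 145). Lantern had 4.01 CPM of it (2.19 to 6.73), and tubefeet and ovaries had 0 counts. Unlike PL29767 it was read in the larva, at 13.1 CPM in pluteus (11.5 to 14.8). It stood at 2.32 CPM in early mesenchyme blastula and had 0 counts in the egg and in prism.

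PL32583, on the minus strand of Scaffold_641 between 9508188 and 9515733 with 4 exon records, had 0.954 scaled CPM in gut (0.384 to 1.97, from 7 halved counts) and 293 in bodywall (284 to 301, from 4407 counts). It was 307-fold lower in gut (149 to 763), a log2 ratio of -7.66. Bodywall shared this gene with lantern, where it had 217 CPM (202 to 233). It had 5.13 CPM in ovaries and 4.37 in tubefeet. Its highest developmental level was 3.05 CPM in prism, and it was below 1 CPM in the other 16 developmental libraries.

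PL32547, also on the minus strand of Scaffold_641 but between 32490322 and 32613711 with 7 exon records, had 0 counts in gut and 97.9 scaled CPM in bodywall (92.9 to 103, from 1474 counts). Against a floor of 3 halved counts in the gut library, which is 0.409 CPM, it was at least 239-fold lower in gut, and the 95% counting interval of the ratio reached down to 194-fold. It had 12.4 CPM in tubefeet (10.7 to 14.4), 9.74 in lantern (6.74 to 13.6) and 0.200 in ovaries. It was at 0 counts in 13 of the 17 developmental libraries and at most 0.408 CPM in the others. A neighbour or a near-identical gene copy may share reads with any of these 4 genes, and this was not tested.

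Which other adult tissues used the differing genes was read next, in libraries that had no part in choosing them. Of the 3 other tissues, lantern held the genes higher in gut most often. Of the 438, 56.8% reached 5 CPM in lantern, 25.3% in tubefeet and 25.8% in ovaries, where all genes compared reached it in 57.5%, 71.5% and 70.7% of cases. The lantern share was thus near that of all genes, and the other 2 shares lay below. Scaled by library size alone, which gave 114 such genes, the shares were 39.5%, 10.5% and 14.9%. The like shares over all genes compared were not taken under that scaling. With TMM scaling the median of the 438 genes was 9.02 CPM in lantern, 0.717 in tubefeet and 0.900 in ovaries. In 295 genes, or 67.4%, lantern was the highest of these 3 tissues, as it was in 27.4% of all genes compared. Lantern alone of the 3 reached 5 CPM in 118 genes, or 26.9%, against 4.97% of all genes compared.

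The genes higher in bodywall reached 5 CPM most often in ovaries. Of the 563, 55.4% reached 5 CPM in ovaries, 47.2% in lantern and 43.2% in tubefeet, each below the share over all genes compared. Scaled by library size alone, which gave 1799 such genes, ovaries still came first at 67.3%, but tubefeet came next at 60.5% and lantern last at 32.8%. The TMM factor was 0.364 for lantern, so leaving it out lowers the lantern level of every gene. Shares over all genes were not taken under library size, so this order does not mark the group. With TMM scaling the median of the 563 genes was 9.20 CPM in ovaries, 4.01 in lantern and 3.48 in tubefeet. Ovaries were the highest of these 3 tissues in 250 genes, or 44.4%, close to the 42.7% of all genes compared, so being highest there does not mark them. Ovaries alone of the 3 reached 5 CPM in 123 genes, or 21.8%, against 8.54% of all genes compared.

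Both groups were narrower in use than other genes, and the gut group more so. None of tubefeet, lantern and ovaries reached 5 CPM in 157 genes higher in gut, or 35.8%, in 101 genes higher in bodywall, or 17.9%, and in 1203 of all genes compared, or 9.54%. All 3 tissues reached it in 58 of the gut genes, or 13.2%, in 109 of the bodywall genes, or 19.4%, and in 39.7% of all genes compared. Gut was the highest of all 5 adult tissues in 377 of its 438 genes, or 86.1%, against 21.0% of all genes compared. Bodywall was the highest in 200 of its 563 genes, or 35.5%, against 15.3%. The gut and bodywall levels that chose these genes also enter this ranking, so these shares only describe. Among the 563 genes the highest tissue was ovaries in 210, or 37.3%, lantern in 89, or 15.8%, and tubefeet in 64, or 11.4%. Over all genes compared these shares were 32.1%, 14.6% and 16.98%.

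The 157 gut genes low in the other tissues had a median of 24.4 CPM in gut and 2.92 in bodywall. The 58 gut genes present in all 3 had 492 in gut and 83.0 in bodywall, beside 332 in lantern. The corresponding 101 bodywall genes low in the other tissues had a median of 0.681 CPM in gut and 10.1 in bodywall, and the 109 present in all 3 had 3.41 in gut and 32.9 in bodywall. In those 109 genes tubefeet stood at 33.0, lantern at 36.4 and ovaries at 37.0, near the bodywall median. The low level in gut, and at least 5 CPM in the 3 other tissues, were part of how these genes were chosen.

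**Figure D3:**
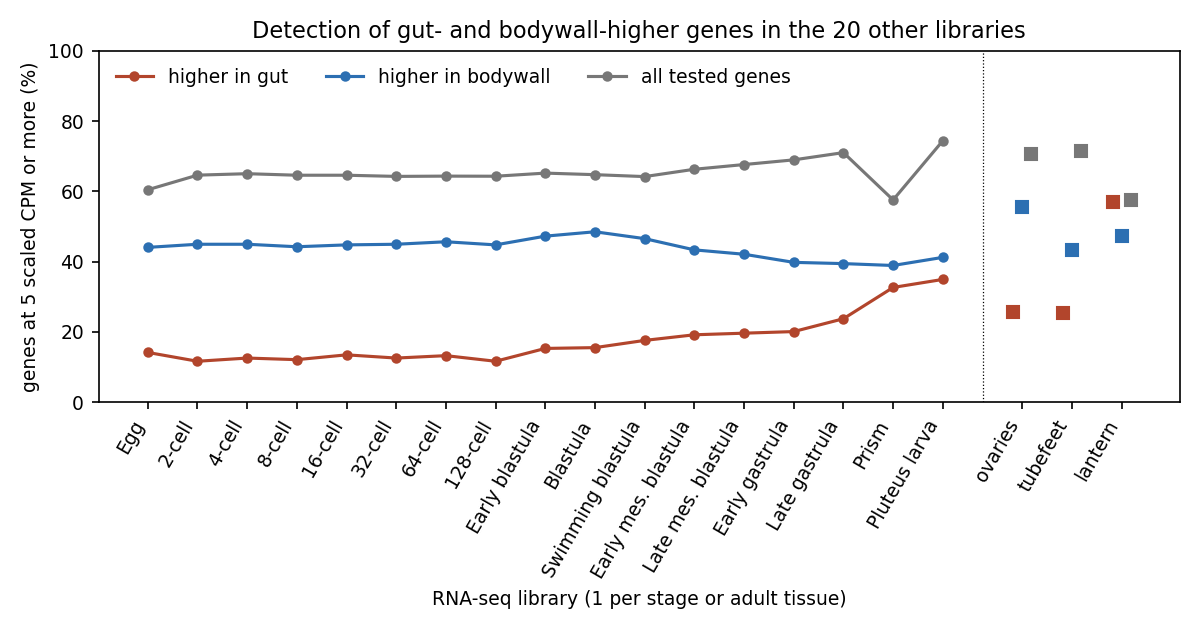
Share of genes at 5 or more scaled CPM, in percent, in the 17 developmental libraries in time order (lines) and in ovaries, tubefeet and lantern (squares), for genes higher in gut, genes higher in bodywall and all 12606 genes compared. The gut genes stand at 14.2% in the egg, 34.9% in pluteus and 56.8% in lantern, while the bodywall genes stay between 38.9% and 48.5% over development.

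The same question was turned round with genes chosen without gut or bodywall. Genes at 5 CPM or more in 1 of lantern, tubefeet and ovaries and at least 8 times the level of each of the other 2 were called restricted to it, and their ratio between gut and bodywall was then read. Lantern had 752 such genes, of which 489 reached 5 CPM in gut or bodywall. Their median log2 ratio of gut over bodywall was 1.04, with quartiles of 0.00 and 1.93, and gut was the higher tissue in 367 of the 489. Of these genes 117 (23.9%) were at least 4-fold higher in gut and 29 (5.93%) in bodywall, against 3.47% and 4.47% of all genes compared. The bodywall share was thus near that of genes in general.

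Lantern-restricted genes were no minor part of gut. All 752 together held 36.8% of the counts in gut and 17.5% in bodywall, beside 18.6% in lantern, 2.52% in tubefeet and 0.769% in ovaries. In 308 of the 752 genes gut stood above lantern itself, as bodywall did in 253, although neither tissue had a part in choosing them. The 117 that were at least 4-fold higher in gut had a median of 579 CPM in gut and 85.5 in bodywall, beside 110 in lantern. They held 23.6% of the gut counts and 6.07% of the bodywall counts, and the other 321 genes higher in gut held 7.31% and 2.75%.

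Ovaries-restricted genes lay on the other side. Of 863 such genes 526 reached 5 CPM in gut or bodywall, with a median log2 ratio of gut over bodywall of -0.88 and quartiles of -2.29 and -0.27. With DESeq2 size factors the median was -1.87 over 258 genes, and with library size alone -1.69 over 720 genes. Over all genes compared these scalings gave medians of 0.10 and -1.14. With TMM scaling, 516 of the 863 reached 5 CPM in bodywall and 321 in gut. Many of the 526 thus entered through bodywall alone, which favours ratios toward bodywall. Without that entry rule, the medians over all 863 were 2.86 CPM in gut and 6.84 in bodywall. Bodywall was the higher tissue in 443 of the 526. Only 1 of them was at least 4-fold higher in gut, while 143 (27.2%) were at least 4-fold higher in bodywall, against 3.47% and 4.47% of all genes compared. Among all 863, 93 had 0 counts in gut and 6 had 0 counts in bodywall. Of all 33922 gene models, 21677 were nonzero in gut and 25091 in bodywall. Lantern-restricted genes had 113 with 0 counts in gut and 79 in bodywall, and tubefeet-restricted genes 237 and 128. More 0 counts in gut are thus not particular to the ovaries-restricted genes. Together the 863 genes held 0.555% of the gut counts and 2.78% of the bodywall counts, beside 18.6% in ovaries.

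Levels of these genes in both tissues stayed well under those in ovaries. Over all 863 genes the median log2 ratio to ovaries was -3.56 in gut (quartiles -4.80 and -2.59) and -2.61 in bodywall (-3.34 and -2.02). The 143 genes at least 4-fold higher in bodywall had a median of 1.36 CPM in gut and 20.4 in bodywall, beside 159 in ovaries and 30.3 in the egg. Ovary tissue in the bodywall sample was not tested for with marker genes, which need names.

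Tubefeet-restricted genes showed little lean. Of 956 such genes 385 reached 5 CPM in gut or bodywall, with a median log2 ratio of gut over bodywall of 0.06 and quartiles of -0.50 and 0.63, beside -0.11 over all genes compared. At least 4-fold differences were seen in 3 genes (0.779%) toward gut and 15 (3.90%) toward bodywall, against 3.47% and 4.47% of all genes compared. All 956 held 0.923% of the gut counts and 1.599% of the bodywall counts, beside 17.7% in tubefeet. The order of the 3 medians, with lantern first and ovaries last, was the same under each of the 8 settings tried, while the sign of the tubefeet median was not.

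**Figure D4:**
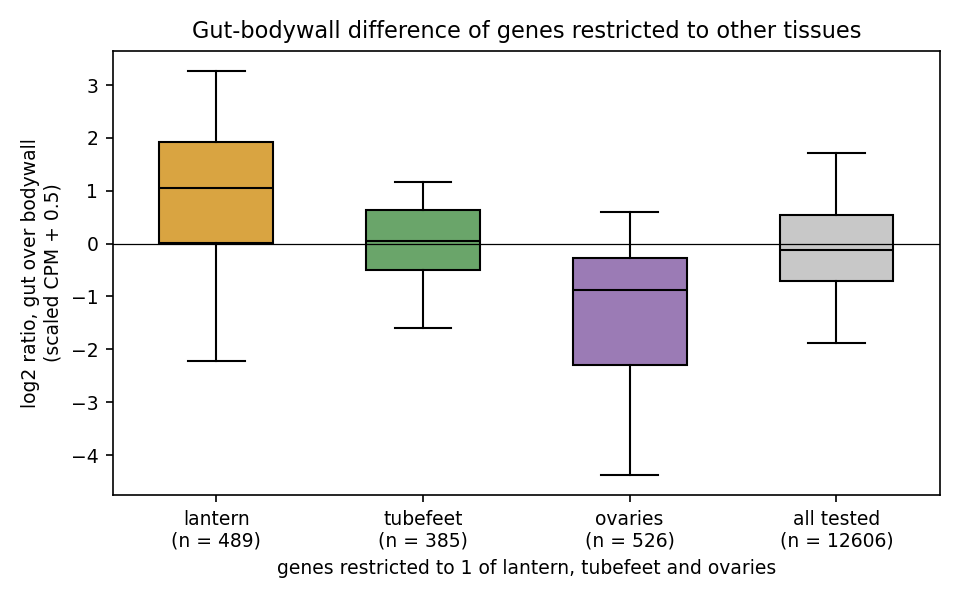
Log2 ratio of gut over bodywall (scaled CPM + 0.5) for genes restricted to lantern, tubefeet or ovaries and for all genes compared, as boxes from the lower to the upper quartile with the median as a line and whiskers at the 5th and 95th percentile of genes. Medians lie at 1.04 for lantern, 0.06 for tubefeet and -0.88 for ovaries.

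Genes that gut or bodywall held over tubefeet, lantern and ovaries were in part common to the pair. At the same 8-fold rule, 685 genes were restricted to gut over those 3 tissues and 396 to bodywall, and 299 genes met both rules. These counts use the gut or bodywall level in the choice and so only describe. Of the 685 genes of gut, 588, or 85.8%, stood at 5 CPM or more in bodywall, below the 93.8% of all genes compared. The 685 genes had a median of 74.3 CPM in gut and 28.3 in bodywall. At least 4-fold higher in gut were 212 of the 685, against 3.47% of all genes compared. Of the 685, 93 were at least 8 times bodywall as well.

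The 396 genes that bodywall held over the same 3 tissues were no higher in bodywall than in gut as a group. Gut had 5 CPM or more in 344 of them, or 86.9%, near the 87.1% of all genes compared, and stood above bodywall in 225 of the 396. Their median was 43.0 CPM in gut and 37.0 in bodywall, a median log2 ratio of 0.23. At least 4-fold differences were found in 31 of the 396 toward gut and in 43 toward bodywall, against 3.47% and 4.47% of all genes compared. Of the 396, 35 stood at least 8 times above gut as well. The bodywall level took part in choosing the 396, so these counts only describe.

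In development more of the genes higher in gut were read late than early. Their share at 5 CPM or more was 14.2% in the egg and 15.5% in blastula. It stood at 23.7% in late gastrula (24 hours), 32.6% in prism (36 hours) and 34.9% in pluteus (48 hours). Over all genes compared it was 60.4% in the egg, 64.7% in blastula and 71.0% in late gastrula, then 57.6% in prism and 74.4% in pluteus. Of the gut genes, 62, or 14.2%, reached 5 CPM in the egg already and 41, or 9.36%, first in prism, against 60.4% and 1.96% of all genes compared. The gut genes' part of the library's counts was 0.183% in the egg and 0.658% in blastula. Swimming blastula had 1.45%, early mesenchyme blastula 3.43%, pluteus 4.18% and prism, the library that stood apart in its most read genes, 7.91%. Most of the difference in this share between the egg and early gastrula, at 3.47%, thus lay between blastula and early mesenchyme blastula, while the share of genes was highest in pluteus. At 5 CPM or more in the higher library, pluteus stood at least 4-fold above the egg in 126 of these genes, or 28.8%, and the egg that far above pluteus in 5, or 1.14%, against 18.7% and 10.4% of all genes compared.

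The genes higher in bodywall kept a nearly level share of genes, while their part of the counts was highest in the egg. Their share at 5 CPM or more was 44.1% in the egg and 48.5% in blastula, and later 39.4% (late gastrula), 38.9% (prism) and 41.2% (pluteus), below the shares over all genes just given. Their part of the counts was 12.9% in the egg, 8.10% at the 2-cell stage and 6.80% in blastula. Early mesenchyme blastula had 3.96% and pluteus 3.76%. Pluteus stood at least 4-fold above the egg in 59 of them, or 10.5%, and the egg that far above pluteus in 123, or 21.8%, against the same 18.7% and 10.4% of all genes compared. Of those 123, 80 were among the 143 ovaries-restricted genes. In the 420 bodywall genes without the ovaries-restricted ones, 40 genes were higher in pluteus and 43 in the egg, or 9.52% and 10.2%, against 18.9% and 9.59% of all genes compared that were not restricted to ovaries. The share higher in the egg was thus close to that of other genes, and the share higher in pluteus was below it.

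Many genes of both groups were hardly read at any stage. Below 1 CPM in all 17 developmental libraries were 126 genes higher in gut, or 28.8%, and 118 higher in bodywall, or 21.0%, against 7.34% of all genes compared. At 5 CPM or more in at least 1 stage were 202 of the gut genes, or 46.1%, and 343 of the bodywall genes, or 60.9%, against 83.4%. Without the prism library these shares were 42.2% and 59.1%, against 82.5%. Steady use through development was rare in the gut group, with 25 genes, or 5.71%, at 5 CPM or more at every stage, beside 129 bodywall genes, or 22.9%, and 38.6% of all genes compared.

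Genes low in the other adult tissues were also those least read in development. Of the 157 such gut genes 76, or 48.4%, stayed below 1 CPM in all 17 stages, and of the 101 such bodywall genes 61, or 60.4%, did. The same share was not taken over all genes compared that were low in these tissues, so it does not mark either group. Below 1 CPM in tubefeet, lantern and ovaries and at every stage were 49 gut genes, or 11.2%, and 25 bodywall genes, or 4.44%. Among all genes compared these were 200, or 1.59%. The 58 gut genes present in all 3 other adult tissues were the exception within the gut group. Their median was 6.97 CPM in the egg and 63.4 in pluteus, and 36 of them were at least 4-fold higher in pluteus than in the egg. The like count was not taken over all compared genes present in these 3 tissues.

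Features of the gene models that the levels did not choose also differed. The median exonic length was 1322 bases for genes higher in gut and 1917 for genes higher in bodywall, against 2158.5 for all genes compared. The median span on the scaffold was 8986 bases for the gut genes and 10523 for the bodywall genes, against 14196, and the median number of exon records was 5 and 6 against 9. Models with a single exon record made up 8.68% of the gut genes and 9.77% of the bodywall genes, against 4.97%. Both groups were shorter and had fewer exons than the genes compared as a whole, with the gut group shortest.

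ATAC-seq peaks mark open chromatin, and the deposited lists cover embryos and larvae only, not adult gut or bodywall. A gene start was called open where a peak summit lay within 1 kb of it. At the 16-cell stage 8.22% of the gut genes and 7.10% of the bodywall genes had an open start, and the 7.96% of all genes compared lay within the counting intervals of both groups. From blastula on both groups were below the genes as a whole. The shares in gastrula were 34.2% for gut genes (95% exact binomial interval 29.8 to 38.9) and 41.9% for bodywall genes (37.8 to 46.1), against 53.5%. In pluteus they were 16.9% (13.5 to 20.7) and 24.7% (21.2 to 28.5), against 36.2%.

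Across the 5 distinct lists, 40.2% of the gut genes and 48.5% of the bodywall genes had an open start in at least 1 list, against 57.5% of all genes compared. The lists differ in length, and with the same number of top-scoring peaks in each list the pluteus shares were 12.3% for gut genes and 20.2% for bodywall genes, against 30.4%. Many of these genes were hardly read before the adult, as given above, and the part of RNA level in these shares was not tested. The sources used here do not say which samples entered each list, and the lists for early and late blastula were identical and counted as 1.

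**Figure D5:**
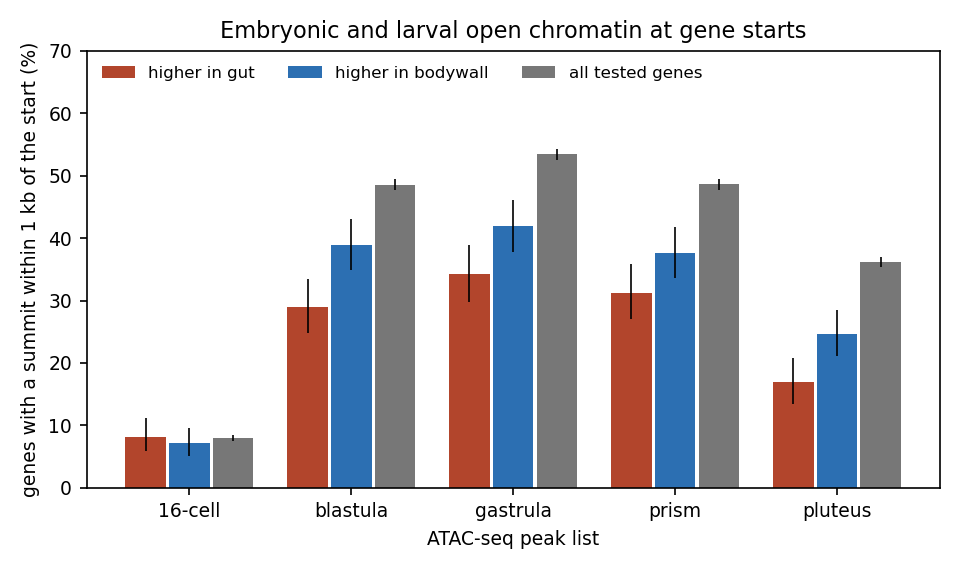
Share of genes, in percent, with an ATAC-seq summit within 1 kb of the annotated start in 5 stage lists, for genes higher in gut, genes higher in bodywall and all genes compared; error bars are 95% exact binomial intervals and cover counting error only. Gut genes lie below bodywall genes in the lists from blastula to pluteus, and both lie below all genes compared, with 16.9%, 24.7% and 36.2% in pluteus.

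Differing genes often sat next to each other. Among pairs of neighbouring gene models that were both compared, a gene higher in gut was followed by another gene higher in gut in 69 of 237 cases, or 29.1%, against 3.22% over all 7269 pairs. A gene higher in bodywall was followed by another in 59 of 271 cases, or 21.8%, against 3.66%. Leaving out pairs of overlapping models gave 28.6% for gut and 20.8% for bodywall. Both genes lay on the same strand in 47 of the 69 gut pairs and 39 of the 59 bodywall pairs, beside 3114 of all 7269 pairs. Neighbours can be copies of one another or share reads, and neither was tested.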

How the data were processed

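Per the labels' protocols, Trizol was used for the RNA, and the strand-specific libraries were read from both ends. The authors deposited whole-number counts per gene model, made with STAR 2.5.2b and featureCounts 1.6.1 per the submitters' processing notes. No label or header names the genome build, so positions are printed as in the deposited table. Strand orientation of the counting was not tested, so a level may come from reads opposite to the transcript. The ATAC-seq lists hold, per peak, a score and a −log10 p-value deposited by the authors, and Bowtie2 2.4.1 and Genrich are named in the submitters' processing notes. Only the score was used, to rank peaks. CUT&Tag samples were not analysed here.

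Counts were scaled by library size and TMM over the 22 libraries (edgeR 4.0.16, R 4.3.3). With 1 library per tissue no test was run. A gene was called at a gut to bodywall ratio of 4 or more either way, with a prior of 0.5 CPM and at least 5 CPM in the higher tissue. Gut counts were divided by 2 for intervals: exact Poisson for levels, exact Clopper-Pearson for shares and ratios. The calling step was tested on simulated counts. DESeq2 1.42.0 size factors and the other settings under the closing section were alternatives. The rule for named genes took the 2 identifiers of largest ratio in each direction with at least 20 CPM in the higher tissue, outside Scaffold_2421. Gene lists by function were not used, since they need names. The comparison, the gene groups and the lists were chosen with earlier results of these data known.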

Additional observations from a re-analysis of the deposited data

How the results depend on the processing

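No paired analysis was possible because each tissue has 1 library, so the shared number 1 pairs nothing, and no library of the pair could be left out. Library size alone gave 114 genes higher in gut and 1799 higher in bodywall, against 438 and 563 with TMM. A prior of 2 CPM gave 326 genes higher in gut and 345 in bodywall. A minimum of 20 CPM gave 335 and 215, which turns the balance toward gut, and a minimum of 1 CPM or none gave 508 and 936. A ratio of 2 gave 1662 genes higher in gut and 1999 in bodywall, and a ratio of 8 gave 123 and 280. TMM on gut and bodywall alone gave 462 and 404, and ratios centred on their median, chosen after seeing the data, gave 504 and 509.

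The median log2 ratio of tubefeet-restricted genes was 0.06 and turned to -1.04 under library size and to -0.029 with even counts halved before TMM, and DESeq2 size factors gave 0.23. The lantern median was 0.31 under library size. The ovaries median was -1.69 under library size, -0.76 with TMM on the pair, -1.87 with DESeq2 size factors, -0.99 without Scaffold_2421 and -1.05 with a prior of 2 CPM. The cause of these shifts was not tested, but library size alone moved the median of all genes compared to -1.14.

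Library size put 10.5% of gut genes at 5 CPM or more in tubefeet, 39.5% in lantern and 14.9% in ovaries, and 60.5%, 32.8% and 67.3% of bodywall genes, with 67.4% in pluteus. Shares over all genes were not taken under library size. At 1 CPM the gut genes gave 46.6% in tubefeet, 78.1% in lantern, 48.2% in ovaries and 54.6% in pluteus, and the bodywall genes 68.6%, 73.4%, 71.8% and 59.0%. At 20 CPM the gut genes gave 14.2%, 40.2%, 11.9% and 20.5%, and the bodywall genes 21.3%, 24.7%, 40.3% and 25.6%. Cutting each peak list to the same number of top-scoring peaks, 12.3% of gut genes and 20.2% of bodywall genes had an open start in pluteus. The named genes kept their direction under the 7 settings tried. Low-level calls rest on few counts, and 1 library per tissue leaves animal-to-animal spread unknown.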

Other observations

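Genes that differed between gut and bodywall formed longer runs along the scaffolds in some places. Along the compared genes, passing over models that were not compared, those higher in gut formed 47 runs of 2 genes, 10 of 3, 2 of 4, 1 of 5 and 1 of 6. Those higher in bodywall formed 59 runs of 2 genes, 9 of 3, 3 of 4 and 1 of 5. In 10 neighbouring pairs 1 gene was higher in gut and the other in bodywall. On scaffolds with at least 200 compared genes the share higher in gut ran between 1.37% and 6.48%, and the share higher in bodywall between 2.93% and 6.83%. Gut genes were thus spread over all of these scaffolds, with Scaffold_3429 at 6.48% and Scaffold_2100 at 1.37%.

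Across the 12606 compared genes the log2 ratio of gut over bodywall went only weakly with ratios between other libraries. Pearson's r was 0.27 with lantern over ovaries (Spearman's rho 0.26), 0.22 with pluteus over egg (0.21), 0.17 with lantern over tubefeet (0.18) and -0.13 with ovaries over tubefeet (-0.08). These values describe genes, which are not independent, and all libraries share 1 scaling.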
